A study of Mus musculus with 9 samples.

Results

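Plexins, semaphorins and neuropilins were examined in BCR/ABLp185+ cell lines that carried or lacked one of the STAT5 genes. The members were found by gene symbol: every plexin of classes A to D, every semaphorin with a numbered symbol, and Nrp1 and Nrp2. This gave 34 of the 50686 counted genes, made up of 9 plexins, 20 semaphorins, 2 neuropilins and 3 antisense genes of Plxna4. Genes switched on or off in 1 line were then selected on raw reads of these libraries. RNA was sequenced from bone marrow cells of the C57BL/6N strain that had been transformed with BCR/ABLp185, the fusion kinase that drives acute lymphoblastic leukemia. The 3 groups were wt, Stat5a-/- and Stat5b-/-, so all of them shared the transforming oncogene, and each knockout group lacked 1 of the 2 STAT5 genes. Each group was 1 cell line sequenced as 3 technical replicates. The p-values therefore measure the spread between libraries of a line, and a difference between genotypes cannot be told apart from a difference between these lines. The deposited description of the knockout samples calls them wt, whereas their titles and genotype labels, which were used here, name the knockouts.

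Semaphorins are ligands that were first known for steering growing axons and that also act in blood vessels and immune cells. Class 3 members are secreted, whereas classes 4 to 7 are held at the cell surface. Plexins are their receptors. They act on small GTPases through a GTPase-activating domain inside the cell and thereby change the cytoskeleton and cell adhesion. Neuropilins are co-receptors without an enzymatic domain that present most class 3 semaphorins to class A plexins and also bind forms of vascular endothelial growth factor. Sema3e is an exception that binds Plxnd1 directly, and Sema7a signals through Plxnc1 and integrins. In lymphoid cells Sema4d, also called CD100, is known as an abundant surface semaphorin that binds Plxnb1, Plxnb2 and Cd72.

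The targeted genes were examined first. Stat5a was counted with 759, 713 and 784 reads in the wt libraries, 169, 146 and 151 in Stat5a-/- and 1271, 1342 and 948 in Stat5b-/-. Stat5b was counted with 1685, 2045 and 1841 reads in wt, 2071, 1530 and 1729 in Stat5a-/- and 1055, 856 and 781 in Stat5b-/-. Each gene was lowest in the line labelled as its knockout, but neither was absent, and counts per gene do not show which exons the remaining reads came from. Library totals lay between 11948136 and 19016396 counted reads. Markers of B cells, the lineage of the transformed cells, summed to 7478 to 7906 CPM (read counts scaled to library size) in wt, 10064 to 10794 in Stat5a-/- and 9414 to 10333 in Stat5b-/-. The sums rest on abundant genes such as Vpreb3 and Pax5. Of the 15 B cell genes, 1 was called up and 3 down in Stat5a-/- against wt (all tested genes 7.75% up and 6.49% down), and 2 up and 2 down in Stat5b-/- (10.6% and 8.44%). Rag1 and Rag2, which encode the recombinase of antigen receptor genes, were called down in both knockout lines. They were the only B cell genes called down in Stat5b-/-, and in Stat5a-/- Dntt was called down besides them. Both Rag genes entered the test only through wt, so their part in these counts is a description. Rag1 had 64.7 ± 2.06 CPM in wt, 0.158 ± 0.0786 in Stat5a-/- and 0.667 ± 0.18 in Stat5b-/-, and Rag2 32.5 ± 4.43, 0.0767 ± 0.0709 and 0.677 ± 0.361 in the same order (SD, n = 3). Dntt, the terminal transferase, fell in Stat5a-/- and rose in Stat5b-/-, from 27.4 ± 2.51 CPM in wt to 8.82 ± 0.537 and 68.3 ± 11.5. Markers of T cells, 16 genes in all, summed to 863 to 1175 CPM in wt, 1514 to 1750 in Stat5a-/- and 1906 to 2715 in Stat5b-/-. Of these 16 genes, 2 (12.5%) were called higher in Stat5a-/- than in wt, beside 7.75% of all tested genes, and 14 (87.5%) in Stat5b-/-, beside 10.6%. None of the 16 was at 0 in any line, and Cd3e stood at 153 ± 24.5, 218 ± 20.7 and 336 ± 61.9 CPM (SD, n = 3) in wt, Stat5a-/- and Stat5b-/-. In bulk RNA a change in the number of cells of a type and a change in RNA per cell cannot be told apart, and the part of the T cell genes in the results on the semaphorins and plexins was not tested. Stromal markers summed to at most 0.754 CPM in any library. The 12 myeloid markers summed to 5.26 to 8.08 CPM in wt, 5.13 to 6.71 in Stat5a-/- and 9.7 to 11.2 in Stat5b-/-. Of the 3 that were tested, Lyz2 (log2 1.07, adjusted p = 0.000788) and Csf1r (1.09, adjusted p = 0.0136) were called up in Stat5b-/- against wt. Fcgr1, which entered the test only through wt, had 28, 29 and 19 reads there and 1 to 5 in a knockout library. The part of the myeloid, endothelial and neuronal genes in the results was not tested. The endothelial list summed to 126 to 130 CPM in wt, 109 to 117 in Stat5a-/- and 201 to 216 in Stat5b-/-, nearly all from Pecam1, which leukocytes also express. Egfl7, the other endothelial marker that was tested, went the other way, at 4.37 ± 1.42 CPM in wt, 2.38 ± 0.362 in Stat5a-/- and 0.517 ± 0.0854 in Stat5b-/- (log2 -3.04 in Stat5b-/- against wt, adjusted p = 5.6e-06). The neuronal list summed to between 57.5 and 92.2 CPM over the 9 libraries, and Nefl, Nefm, Rbfox3 and Snap25 were at 0 in all of them. Its 2 tested genes moved in opposite directions, Map2 at 17 ± 1.79, 4.43 ± 0.407 and 41.2 ± 4.39 CPM and Tubb3 at 48.5 ± 6.12, 76.2 ± 10.5 and 31.3 ± 3.04 CPM in wt, Stat5a-/- and Stat5b-/-.

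In wt cells 19 of the 34 members had at least 10 reads in every library, against 14 in Stat5a-/- and 14 in Stat5b-/-, and 12 members did so in all 9 libraries. Levels of different genes were compared per length, as RPKM (CPM divided by the exon length in kilobases). The most abundant semaphorin in all lines was Sema4d, which made up 55.2% ± 0.323 (SD, n = 3) of the summed semaphorin RPKM in wt, 51.8% ± 0.675 in Stat5a-/- and 53.7% ± 0.304 in Stat5b-/-. Second place differed between the lines. In wt it was held by Sema6d, with 22.7% ± 0.362 of the semaphorin RPKM, and in both knockout lines by Sema4a. The share of Sema4a rose from 6.54% ± 0.559 in wt to 25% ± 0.82 in Stat5a-/- and 26.5% ± 0.922 in Stat5b-/-.

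Among the receptors, Plxnb2 and Plxna1 were level in wt cells, with 31.9% ± 0.747 and 31.5% ± 0.438 of the summed plexin RPKM. Plxnd1 followed with 16% ± 0.389, Plxna3 with 9.55% ± 0.399 and Plxna2 with 8.91% ± 0.392. In Stat5a-/- cells Plxna1 alone supplied 72.8% ± 2.15 and in Stat5b-/- cells 78.2% ± 2.14 of the plexin RPKM. The summed plexin RPKM itself was 40.7 ± 4.59 in wt, 45.5 ± 9.74 in Stat5a-/- and 38.9 ± 9.27 in Stat5b-/-, so the sums overlapped between the lines while the make-up differed. The class 4 semaphorins behaved differently, since their summed RPKM was 69.2 ± 1.84 in wt, 143 ± 12.3 in Stat5a-/- and 125 ± 14.2 in Stat5b-/-.

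**Figure D1:**
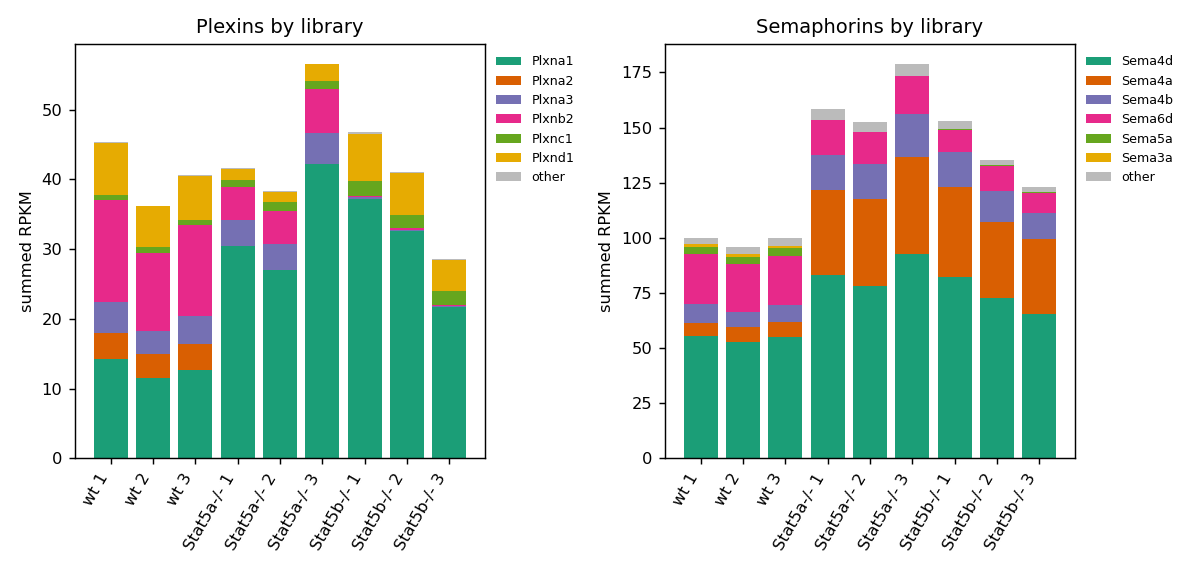
Summed RPKM of the plexins (left) and semaphorins (right) in each of the 9 libraries, with the height of each colour giving the RPKM of a gene and grey the other members. Plxna1 fills most of the plexin bars of both knockout lines, where its mean share was 72.8% and 78.2% against 31.5% in wt, and Sema4a widens from 6.54% to 25% and 26.5% of the semaphorin bars.

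Of the 34 members, 20 had enough reads to enter the test across 13852 genes. A gene was called at an adjusted p under 0.05 (edgeR quasi-likelihood test, Benjamini-Hochberg) and a fold change over 2. In Stat5a-/- against wt 5 members were called up and 6 down, where 7.75% and 6.49% of all tested genes were called. In Stat5b-/- against wt 6 members were called up and 7 down, beside 10.6% and 8.44% of all tested genes. In Stat5b-/- against Stat5a-/- 3 were called up and 4 down, beside 4.81% and 6.6%. The family was put forward with these differences known, and the knockout comparisons share the wt libraries, so the counts describe the family and are no test of it. They include Plxna2, Sema3e and Sema5a, which raw reads chose, and Sema3a and Plxnb1, which like Plxna2 and Sema3e entered the test only through the line where they were high. Without the 3 chosen on raw reads, 17 tested members were left. Of these, 5 were called up and 3 down in Stat5a-/- against wt. In Stat5b-/- against wt 6 were up and 4 down, and between the knockouts 2 were up and 4 down. These counts, and the medians of the 17 given below, still hold Sema3a and Plxnb1. Sema3a was down in both knockout lines, and Plxnb1 was up in Stat5b-/- against both other lines. The median log2 fold change of the 20 tested members was -0.03 in Stat5a-/- and -0.38 in Stat5b-/- against wt and -0.15 between the knockouts, against 0.01, 0.023 and 0.02 over all tested genes. Without the 3 genes chosen on reads these medians were 0.36, 0.44 and -0.20, so the sign of the medians against wt rests on those genes. In all, 17 members were called in at least 1 comparison, as were 25.9% of all tested genes. Plxna2, Plxnb2, Sema3a, Sema3e and Sema5a were down in both knockout lines, as were 4.36% of all tested genes, and Plxna1 and Sema4a were up in both, as were 4.35%. Sema4d, Sema4g and Sema6b were called in no comparison. The T cell marker sums given above were higher in every knockout library than in every wt library, beside these differences.

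**Figure D2:**
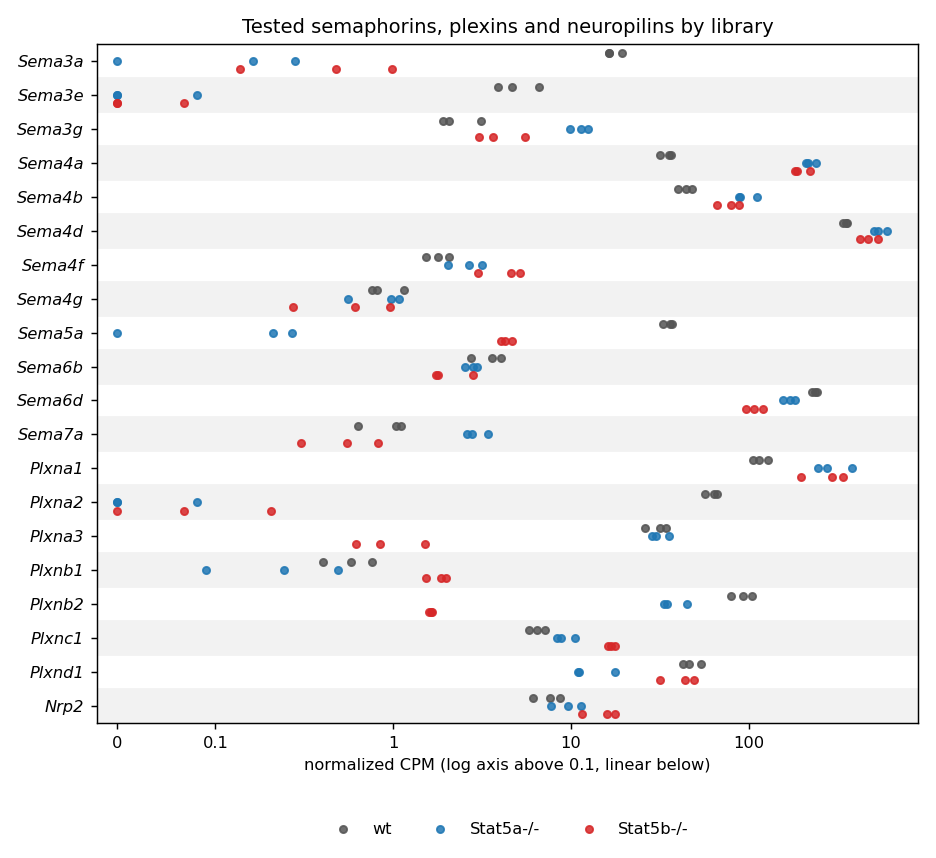
Normalized CPM of the 20 tested members in each of the 9 libraries, 1 dot per library, on an axis that is logarithmic above 0.1 and linear below. Plxna2 and Sema3e lie at or near 0 in all 6 knockout libraries, Sema5a in the Stat5a-/- libraries, and Plxna3 and Plxnb2 are far lower in Stat5b-/- than elsewhere.

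Of the tested members, 3 were switched on or off in 1 line. This number depends on the limits, being 0 with at least 10 against 0 reads and 1, Sema3e, with at least 0.5 against at most 0.1 CPM. A gene was chosen as switched if it had at least 10 reads in every library of one state and at most 3 in every library of the other, which 219 genes (1.62%) did of the 13483 with at least 10 reads in every library of a line. Plxna2 and Sema3e were on only in wt, as were 101 genes in all, and Sema5a was off only in Stat5a-/-, as were 19 genes in all. Since raw reads chose these 3 genes, their values are given without a p-value, and their calls in the counts above are a description.

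Plxna2 is a class A plexin that pairs with neuropilins to receive class 3 semaphorins and also binds class 6 members directly. It had 1038, 1123 and 1104 reads in the wt libraries, 0, 1 and 0 in Stat5a-/- and 3, 1 and 0 in Stat5b-/-. No wt library was near the knockout libraries, and those 6 held 5 reads between them. Summed over the libraries and scaled to library size, wt exceeded Stat5a-/- by a ratio of 2327 (95% counting interval 417 to 91932) and Stat5b-/- by 654 (255 to 2401). Such intervals cover counting error only. The gene lies at chr1:194618218-194816869 on the forward strand (GRCm38). Of its 6 nearest tested neighbours, 3 on each side and 220 to 1345 kb away, none was called down against wt in either knockout line. G0s2 was called up in Stat5b-/- (log2 1.1, adjusted p = 0.0453) and Gm37691 in Stat5a-/- (log2 1.64, adjusted p = 3.04e-08), and 2 of the 6 were called down in Stat5b-/- against Stat5a-/-.

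Sema3e, the secreted ligand of Plxnd1, had 61, 92 and 114 reads in wt, 0, 1 and 0 in Stat5a-/- and 0, 1 and 0 in Stat5b-/-. Each knockout line thus held a single read. The ratio of wt to Stat5a-/- was 190 (95% counting interval 33.9 to 7543) and that of wt to Stat5b-/- was 214 (38.1 to 8477). Sema3e lies at chr5:14025276-14256689 on the forward strand. Its receptor gene Plxnd1 did not follow it in both lines, as described with the receptors.

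Sema5a is a transmembrane semaphorin with thrombospondin repeats in its outer part. It had 519, 736 and 624 reads in wt, 3, 0 and 3 in Stat5a-/- and 68, 59 and 56 in Stat5b-/-. All 3 lines formed separate levels, with Stat5b-/- between the other two, at 35.4 ± 2.19 CPM for wt, 4.32 ± 0.319 for Stat5b-/- and 0.16 ± 0.142 for Stat5a-/- (SD, n = 3). Stat5a-/- lay below wt by a ratio of 223 (95% counting interval 102 to 609) and below Stat5b-/- by 27.1 (12.2 to 74.9). The gene lies at chr15:32244813-32696341 on the forward strand. Among its 6 nearest tested neighbours only Cpq, a carboxypeptidase gene 387 kb downstream, was called down against wt in both knockout lines. Cpq had 65, 80 and 64 reads in wt, 1, 3 and 0 in Stat5a-/- and 19, 19 and 21 in Stat5b-/-, the same order of the lines as for Sema5a.

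Other members came close to these limits without meeting them. Sema3a, the secreted ligand that collapses growth cones through Nrp1 and class A plexins, had 259, 381 and 284 reads in wt, 4, 2 and 0 in Stat5a-/- and 2, 7 and 13 in Stat5b-/-. All wt libraries were far above all knockout libraries, but 1 Stat5a-/- and 2 Stat5b-/- libraries held more than 3 reads. The ratio of wt to Stat5a-/- was 110 (95% counting interval 50.2 to 300) and to Stat5b-/- 33.6 (22.1 to 53.9). Sema3c, another class 3 ligand, had 4, 13 and 8 reads in wt and 0 in all 6 knockout libraries. Set against a floor of 3 reads per library, or 9 over the group, its level in wt was at least 1.98-fold higher than in Stat5a-/- and at least 2.22-fold higher than in Stat5b-/-. On the other side of the limits, Plxna3 with 22, 9 and 11 reads and Plxnb2 with 24, 24 and 21 reads in Stat5b-/- were low but not off.

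Sema3a, Sema3c, Sema3d and Sema3e lie within 5.35 Mb of each other at chr5:12383385-17730268, a stretch that holds 77 counted genes. Only 10 of the 77 had enough reads to be tested. Of these, Sema3a, Gm43719, Sema3e and Pclo were far lower in both knockout lines. They entered the test only through their reads in wt, so their values are a description, as are those of Sema3e, which raw reads chose. The other 6, named only by Gm symbols, were not called against wt. Pclo, a gene of the presynaptic active zone, had 55, 54 and 47 reads in wt and a single read in the 6 knockout libraries. Gm43719, which begins 1.47 kb beyond the end of Sema3a, had 17, 34 and 39 reads in wt and 0 in every knockout library. The reads were counted without regard to strand, so reads of a gene and of one on the opposite strand cannot be told apart. Among the 6 was Gm4751, between Sema3a and Sema3e, with 23, 34 and 24 reads in wt, 17, 17 and 16 in Stat5a-/- and 13, 17 and 17 in Stat5b-/-. Sema3d had at most 3 reads in a library.

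**Figure D3:**
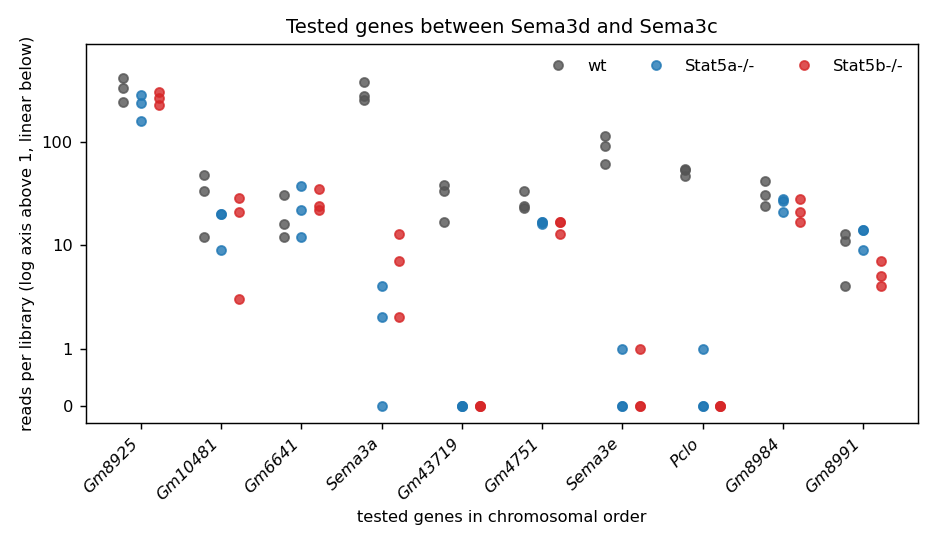
Raw reads per library of the 10 tested genes in the stretch from Sema3d to Sema3c on chromosome 5, in chromosomal order, 1 dot per library, on an axis that is logarithmic above 1 and linear below. Sema3a, Gm43719, Sema3e and Pclo fall to between 0 and 13 reads in the knockout libraries, whereas in the other 6 genes the lowest knockout library holds between 3 and 160 reads.

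The promoter sequences of 4 members that were far lower in one or both knockout lines are shown because STAT5 binds DNA at palindromic sites, searched here as TTCNNNGAA with N for any base. RefSeq start sites (GRCm38.p6) gave windows from 250 bases before to 50 bases from the start on for 26 of the 34 members, 37 windows in all. The letters TTCNNNGAA, which read the same on both strands, occurred in 2726 of all 32851 windows (8.3%) and in 1 of the 37 member windows (2.7%), that of Sema3e. The match begins 41 bases after the start site and is in capitals; the other windows shown hold none. A match is a run of letters and not a measured binding site, and its absence concerns these windows only.
Plxna2, chr1:194619579-194619878, forward strand: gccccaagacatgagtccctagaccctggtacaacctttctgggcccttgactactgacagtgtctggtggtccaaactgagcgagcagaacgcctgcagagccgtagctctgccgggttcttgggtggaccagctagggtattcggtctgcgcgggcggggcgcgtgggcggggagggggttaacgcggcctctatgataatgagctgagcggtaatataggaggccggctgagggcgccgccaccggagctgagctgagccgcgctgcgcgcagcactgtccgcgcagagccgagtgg
Sema3a, chr5:13396534-13396833, forward strand: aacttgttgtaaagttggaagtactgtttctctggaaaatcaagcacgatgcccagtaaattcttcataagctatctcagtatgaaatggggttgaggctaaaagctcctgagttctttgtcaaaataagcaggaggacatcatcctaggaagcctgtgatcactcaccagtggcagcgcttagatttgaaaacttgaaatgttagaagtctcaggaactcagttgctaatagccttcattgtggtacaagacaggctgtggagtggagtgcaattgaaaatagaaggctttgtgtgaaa
Sema3e, chr5:14025026-14025325, forward strand: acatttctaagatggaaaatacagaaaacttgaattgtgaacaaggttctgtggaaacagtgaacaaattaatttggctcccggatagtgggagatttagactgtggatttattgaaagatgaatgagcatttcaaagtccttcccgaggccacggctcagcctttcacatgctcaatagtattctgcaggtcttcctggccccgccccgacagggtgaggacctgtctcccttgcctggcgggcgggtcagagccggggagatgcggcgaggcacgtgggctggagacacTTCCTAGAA
Sema5a, chr15:32244563-32244862, forward strand: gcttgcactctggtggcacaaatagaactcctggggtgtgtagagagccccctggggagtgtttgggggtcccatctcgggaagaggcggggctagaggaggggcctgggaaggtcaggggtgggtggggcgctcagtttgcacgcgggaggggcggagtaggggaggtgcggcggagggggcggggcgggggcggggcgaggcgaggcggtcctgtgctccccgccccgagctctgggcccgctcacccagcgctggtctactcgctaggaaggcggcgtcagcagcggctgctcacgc
The windows of Plxna2 and Sema5a are rich in G and C (64.7% and 71.3%) and in CpG, with observed-to-expected CpG ratios of 0.81 and 0.66 against a median of 0.384 over all windows. That of Sema3a is 41.3% G and C with a CpG ratio of 0.16, and that of Sema3e 50.7% with 0.58. The window of Sema3c, not printed here, is 75.7% G and C with a CpG ratio of 0.98. Base composition thus differed among these 5 windows. For Plxna2 and Sema3a the RefSeq start lies inside the counted gene, downstream of its first annotated base, whereas for Sema3e and Sema5a both coincide.

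Among the remaining secreted ligands, Sema3a had a fitted log2 fold change of -6.7 (SE 0.43) in Stat5a-/- and -5.04 (SE 0.35) in Stat5b-/-, given without a p-value since only its wt reads brought it into the test. These sizes rest on few knockout reads, since leaving out Stat5a-/- replicate 1 gave -7.55 and leaving out Stat5b-/- replicate 3 gave -5.78. Sema3g, a class 3 semaphorin known from endothelial cells, moved the other way. It had 30, 41 and 54 reads in wt, 162, 121 and 139 in Stat5a-/- and 80, 53 and 40 in Stat5b-/-. All Stat5a-/- libraries stood above all others, whereas Stat5b-/- overlapped wt in CPM. The log2 fold change was 2.24 (SE 0.24, adjusted p = 7.31e-06) in Stat5a-/- and 0.78 (SE 0.26, adjusted p = 0.0247) in Stat5b-/-, the latter under the fold limit. The knockout lines differed directly, with -1.46 in Stat5b-/- against Stat5a-/- (SE 0.23, adjusted p = 0.000317). Sema3f, a ligand of Nrp2, was at most 6 reads in any library.

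Sema4a, a class 4 semaphorin known for costimulating T cells, was the semaphorin that rose most in both lines among those tested. It had 501, 708 and 636 reads in wt, 3004, 2635 and 2635 in Stat5a-/- and 3214, 2725 and 2385 in Stat5b-/-. No knockout library came near a wt library. The gene was 6.34-fold higher in Stat5a-/- (log2 2.67, SE 0.11, adjusted p = 1.18e-09) and 5.64-fold higher in Stat5b-/- (log2 2.5, SE 0.11, adjusted p = 2.04e-09). The knockout lines differed from each other by -0.17 (SE 0.11, adjusted p = 0.237), which did not pass the test.

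Sema4b had 759, 788 and 768 reads in wt, 1261, 1091 and 1237 in Stat5a-/- and 1284, 1159 and 872 in Stat5b-/-. Its log2 fold change was 1.12 (SE 0.13, adjusted p = 1.94e-05) in Stat5a-/- and 0.82 (SE 0.13, adjusted p = 0.00024) in Stat5b-/-. The first passed the fold limit, but not without Stat5a-/- replicate 3 (0.98) or with a correction for GC content (0.94). Sema4f was the reverse case, with 24, 41 and 31 reads in wt, 29, 33 and 35 in Stat5a-/- and 75, 44 and 60 in Stat5b-/-. It was called only in Stat5b-/- (log2 1.23, SE 0.25, adjusted p = 0.00149), and the difference between the knockout lines, 0.7 (SE 0.25, adjusted p = 0.0472), did not reach the fold limit.

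Sema4d, the most abundant semaphorin, had 5632, 6738 and 6126 reads in wt, 7656, 6186 and 6619 in Stat5a-/- and 7750, 6856 and 5558 in Stat5b-/-. In CPM all knockout libraries lay above all wt libraries, at 350 ± 9.02 in wt, 545 ± 47.5 in Stat5a-/- and 474 ± 54.3 in Stat5b-/- (SD, n = 3). Its log2 fold changes of 0.64 (SE 0.11, adjusted p = 0.000406) and 0.44 (SE 0.11, adjusted p = 0.00485) passed the test but stayed under the fold limit. Sema4g, with 4 to 20 reads in a library, was not called in any comparison.

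Of the class 6 ligands, 2 of 4 were tested and 1, Sema6d, was called. It was called down in Stat5b-/- against wt, as were 8.44% of all tested genes. Sema6d, a ligand of Plxna1, had 3826, 4512 and 4081 reads in wt, 2428, 1904 and 2006 in Stat5a-/- and 1551, 1759 and 1273 in Stat5b-/-. In CPM the lines were ordered wt, Stat5a-/-, Stat5b-/- without overlap, at 235 ± 7.46, 169 ± 13 and 108 ± 11.7 CPM. It was called in Stat5b-/- (log2 -1.13, SE 0.1, adjusted p = 1.72e-06) and stayed under the fold limit in Stat5a-/- (-0.48, SE 0.1, adjusted p = 0.00243) and between the knockouts (-0.64, SE 0.1, adjusted p = 0.000399). Sema7a, a membrane-anchored ligand of integrins and Plxnc1, had 10, 22 and 18 reads in wt, 37, 34 and 38 in Stat5a-/- and 12, 8 and 4 in Stat5b-/-. It was higher in Stat5a-/- than in wt (log2 1.62, SE 0.3, adjusted p = 0.000769) and lower in Stat5b-/- than in Stat5a-/- (-2.35, SE 0.34, adjusted p = 0.000156). Stat5b-/- against wt gave -0.73 (SE 0.38, adjusted p = 0.139), which did not pass the test. Sema6b had 23 to 70 reads in a library and passed no fold limit.

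**Figure D4:**
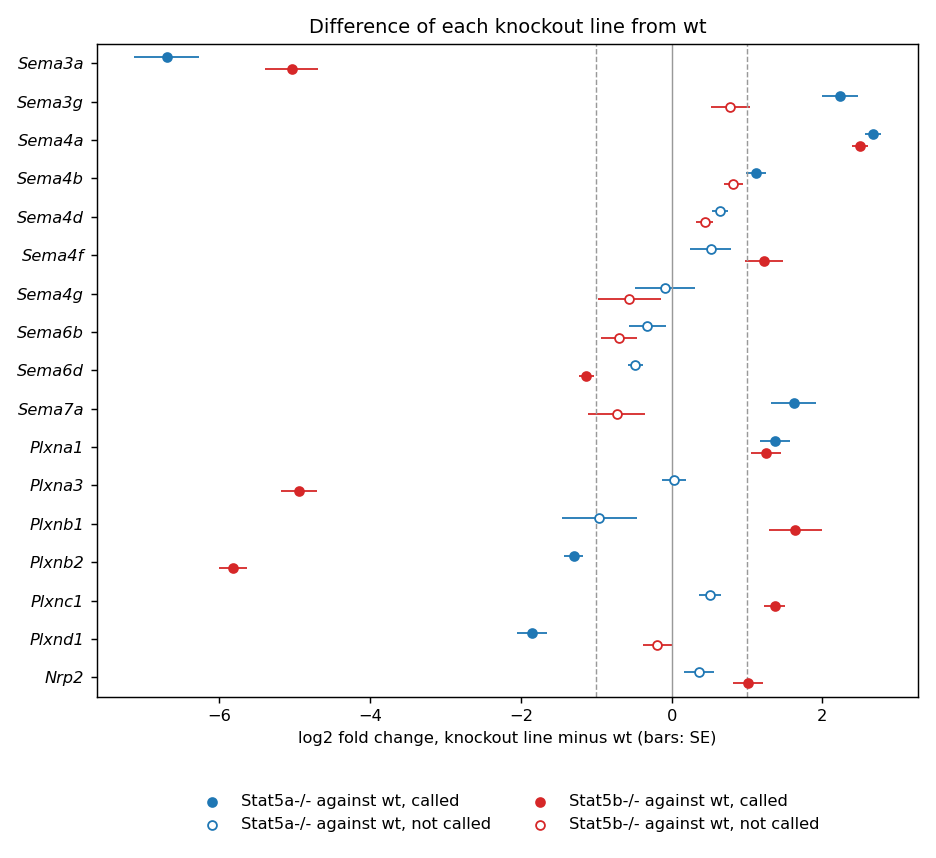
Log2 fold change of each knockout line minus wt for 17 tested members, without the 3 chosen on raw reads, with bars for the SE and filled dots for calls; dashed lines mark the fold limit of 2. Sema4a and Plxna1 lie right of the limit in both lines, Sema3a and Plxnb2 left of it in both, and Plxna3 lies at 0.03 in Stat5a-/- and -4.94 in Stat5b-/-. Sema3a and Plxnb1 entered the test only through the line where they were high, so their filled dots are a description.

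The class A receptors went in opposite directions. Plxna1, which binds class 6 semaphorins directly and class 3 members with neuropilins, had 2027, 2078 and 1988 reads in wt, 3946, 3002 and 4238 in Stat5a-/- and 4915, 4326 and 2581 in Stat5b-/-. Even the lowest knockout library lay above the highest wt library. Plxna1 was 2.59-fold higher in Stat5a-/- (log2 1.37, SE 0.2, adjusted p = 0.000104) and 2.38-fold higher in Stat5b-/- (log2 1.25, SE 0.2, adjusted p = 0.000183), with a difference between the knockouts of -0.12 (SE 0.19, adjusted p = 0.662).

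Plxna3, the X-linked class A plexin that pairs with Nrp2, had 542, 515 and 549 reads in wt, 411, 369 and 393 in Stat5a-/- and 22, 9 and 11 in Stat5b-/-. Only the Stat5b-/- line was low, since Stat5a-/- overlapped wt in CPM. The log2 fold change was -4.94 (SE 0.24, adjusted p = 3.14e-09) in Stat5b-/- and 0.03 (SE 0.16, adjusted p = 0.902) in Stat5a-/-, and the knockout lines differed by -4.97 (SE 0.24, adjusted p = 5.07e-09). The gene lies at chrX:74329066-74344689 on the forward strand, and none of its 6 nearest tested neighbours, all within 24.5 kb, was called in any comparison. The drop was thus seen at Plxna3 without a called change in the genes beside it.

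Plxnb2, a receptor of Sema4d, fell in both lines but to different levels. It had 1644, 1581 and 1615 reads in wt, 493, 410 and 500 in Stat5a-/- and 24, 24 and 21 in Stat5b-/-. All 3 lines lay apart without overlap. The log2 fold change was -1.3 (SE 0.13, adjusted p = 5.53e-06) in Stat5a-/- and -5.82 (SE 0.19, adjusted p = 1.19e-10) in Stat5b-/-, a difference between the knockouts of -4.52 (SE 0.19, adjusted p = 1.54e-09). It lies at chr15:89155549-89171120 on the reverse strand. Of its 6 nearest tested neighbours, Mapk12, a p38 kinase gene 14.8 kb away, was called down in Stat5b-/- (log2 -2.13, adjusted p = 0.000163) and the other 5 were not called against wt. In Stat5b-/- against Stat5a-/- 2 neighbours were also called down, Mapk12 (-1.74, adjusted p = 0.00232) and Mapk11, another p38 kinase gene 5.94 kb away (-1.31, adjusted p = 3.68e-05).

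Plxnb1, another Sema4d receptor, was rare in every line, with 12, 8 and 10 reads in wt, 7, 3 and 1 in Stat5a-/- and 27, 29 and 20 in Stat5b-/-. Its fitted log2 fold change was 1.64 (SE 0.35) in Stat5b-/- against wt and 2.59 (SE 0.42) against Stat5a-/-, the latter 3.33 without Stat5a-/- replicate 1. Plxnb1 entered the test only through its Stat5b-/- reads, so no p-value is given. The summed class B plexin RPKM was 13.1 ± 1.78 in wt, 5.37 ± 0.91 in Stat5a-/- and 0.499 ± 0.0109 in Stat5b-/- (SD, n = 3). With Sema4d RPKM at 54.3 ± 1.4, 84.5 ± 7.36 and 73.6 ± 8.41 in the same order, the ligand was higher and the class B sum lower in both knockout lines than in wt, the Sema4d change staying under the fold limit. Between the knockout lines the Sema4d difference of -0.2 (SE 0.11, adjusted p = 0.169) did not pass the test. Cd72, the lymphocyte receptor of Sema4d, had 42.8 ± 1.89, 38.6 ± 2.65 and 80.4 ± 6.58 CPM in wt, Stat5a-/- and Stat5b-/-.

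Plxnd1, the receptor of Sema3e, was low only in the Stat5a-/- line. It had 845, 846 and 796 reads in wt, 157, 136 and 195 in Stat5a-/- and 717, 637 and 415 in Stat5b-/-. It fell in Stat5a-/- (log2 -1.85, SE 0.2, adjusted p = 8.39e-06) and was higher in Stat5b-/- than in Stat5a-/- (1.66, SE 0.2, adjusted p = 3.74e-05), while Stat5b-/- against wt gave -0.19 (SE 0.19, adjusted p = 0.423). Plxnc1, the receptor of Sema7a, had 102, 142 and 101 reads in wt, 120, 129 and 98 in Stat5a-/- and 257, 235 and 221 in Stat5b-/-. It rose in Stat5b-/- (log2 1.37, SE 0.14, adjusted p = 4.28e-06). Stat5a-/- against wt gave 0.51 (SE 0.15, adjusted p = 0.0159), under the fold limit. Receptor and ligand of this pair were thus highest in different lines, Plxnc1 in Stat5b-/- and Sema7a in Stat5a-/-.

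Of the co-receptors, Nrp2 had 96, 171 and 132 reads in wt, 138, 140 and 86 in Stat5a-/- and 257, 169 and 209 in Stat5b-/-. In CPM the Stat5b-/- libraries lay above the wt libraries, at 15 ± 3.13 against 7.45 ± 1.28. The log2 fold change of 1.01 (SE 0.2, adjusted p = 0.000974) only just passed the fold limit and lay under it, between 0.85 and 0.99, in 10 of 15 alternative fits. Nrp1, the main receptor of Sema3a, had 1 to 16 reads in a library and was not tested. The class 3 ligands and their co-receptor Nrp1 were low in all lines compared with the class 4 members, the summed RPKM of class 3 being 2.44 ± 0.289 in wt, 2.57 ± 0.315 in Stat5a-/- and 1 ± 0.225 in Stat5b-/-.

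All other members were near or at the limit of detection. The 14 members not tested had at most 16 reads in a library, and 3 of them, Plxna4os1, Plxna4os2 and Sema5b, had none in all 9. Plxnb3 had 3 to 11 reads, Sema6c 2 to 8 and Sema4c 0 to 6. Plxna4, Sema3b, Sema6a and Plxna4os3 had at most 3 reads each. No difference between the lines was tested for these genes.

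The partners and effectors of the family were given by a list of 69 other genes (ligand and receptor partners, and the kinases, GTPase regulators and MICAL enzymes that act below plexins), of which 47 were tested. In Stat5a-/- against wt 3 were called up and 7 down, in Stat5b-/- against wt 6 up and 4 down, and between the knockouts 6 up and 3 down. As shares of the 47 these were 6.38% up and 14.9% down in Stat5a-/-, beside 7.75% and 6.49% of all tested genes. In Stat5b-/- they were 12.8% up and 8.51% down, beside 10.6% and 8.44%, and thus near the background. Between the knockouts they were 12.8% up and 6.38% down, beside 4.81% and 6.6%. Their median log2 fold changes were 0.11, 0.15 and 0.07, against 0.01, 0.023 and 0.02 over all tested genes. The counts and shares include genes that entered the test only through the line where they were high. These are Rnd1 and Itga1, down in both knockout lines against wt, and Micall2, up in Stat5b-/- against both other lines. The counts and shares are therefore a description. Pak1, a kinase that acts below Rac and Cdc42, rose in both lines, from 9, 26 and 12 reads in wt to 212, 205 and 194 in Stat5a-/- (log2 4.2, SE 0.22, adjusted p = 1e-08) and 206, 192 and 170 in Stat5b-/- (3.91, SE 0.23, adjusted p = 1.78e-08). Limk1, the kinase that Pak1 activates and that phosphorylates cofilin, rose with it, by 1.37 (SE 0.18, adjusted p = 3.66e-05) in Stat5a-/-. It also rose by 1.45 (SE 0.18, adjusted p = 1.96e-05) in Stat5b-/-.

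Tiam1, a Rac exchange factor, rose in Stat5b-/- against both other lines, with 5, 29 and 24 reads in wt, 19, 12 and 16 in Stat5a-/- and 581, 617 and 395 in Stat5b-/-. Its log2 fold change was 5.09 (SE 0.29, adjusted p = 1.8e-08) against wt and 4.9 (SE 0.3, adjusted p = 6.18e-08) against Stat5a-/-. Micall2, a MICAL-like protein, had 9, 9 and 10 reads in wt, 6, 10 and 8 in Stat5a-/- and 104, 83 and 57 in Stat5b-/-. It entered the test only through Stat5b-/-, so its fitted log2 values of 3.41 (SE 0.29) and 3.15 (SE 0.3) are given without a p-value. Mical3, one of the MICAL enzymes that oxidize actin downstream of plexins, fell in both lines, with log2 fold changes of -4.18 (SE 0.2, adjusted p = 3.49e-09) in Stat5a-/- and -2.6 (SE 0.17, adjusted p = 6.31e-08) in Stat5b-/-, and was higher in Stat5b-/- than in Stat5a-/- (1.58, SE 0.22, adjusted p = 0.000118).

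Rnd1, a small GTPase that binds plexins, had 14, 26 and 12 reads in wt, 1, 2 and 3 in Stat5a-/- and 1, 0 and 0 in Stat5b-/-, with fitted log2 fold changes of -2.55 (SE 0.54) and -4.94 (SE 0.74). Itga1, an integrin subunit that pairs with the Sema7a receptor subunit Itgb1, had 50, 57 and 59 reads in wt, 3, 0 and 5 in Stat5a-/- and 8, 5 and 4 in Stat5b-/-, with fitted log2 fold changes of -3.83 and -2.95. Rnd1 and Itga1 entered the test only through wt, so no p-values are given. Among the growth factors that share neuropilins with the class 3 semaphorins, Pgf had 16, 13 and 12 reads in wt, 318, 321 and 332 in Stat5a-/- and 15, 20 and 12 in Stat5b-/-. It rose in Stat5a-/- (log2 5.05, SE 0.21, adjusted p = 1.13e-09) and was -4.54 in Stat5b-/- against Stat5a-/- (SE 0.21, adjusted p = 3.9e-09). Vegfa and Vegfb were also lower in Stat5b-/- than in Stat5a-/-, with log2 differences of -1.08 (SE 0.12, adjusted p = 1.19e-05) and -1.26 (SE 0.19, adjusted p = 0.000276). Kdr, the main signalling receptor of Vegfa, had at most 6 reads in a library.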

How the data were processed

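RNA of 9 libraries of transformed mouse bone marrow cells, 1 line per genotype (wt, Stat5a-/-, Stat5b-/-) in 3 technical replicates, had been sequenced as 50-base single reads. The authors trimmed the reads with Trimmomatic, mapped them with STAR to GRCm38 with GENCODE M13 genes and deposited the raw counts per gene from featureCounts 1.5.1, which were not normalized or filtered, nor counted by strand. Samples were grouped by title and genotype label. Symbols came from GENCODE M21 and named 50376 of 50686 genes.

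Counts were tested with edgeR 4.0.16 in R 4.3.3 (quasi-likelihood test, TMM scaling, filterByExpr, all 9 libraries in one fit, Benjamini-Hochberg adjustment over 13852 genes). Calls needed an adjusted p under 0.05 and a fold change over 2. The SE is the log2 fold change divided by the root of F. CPM used TMM-scaled library sizes, and RPKM the union exon length. Alternatives were DESeq2 1.42.0, RLE scaling, no filter on low counts, fits of 2 lines, no fold limit, a replicate block, other switch limits, each library left out, and a GC offset added after seeing the data. The members, gene lists and thresholds were chosen with earlier results of these data known. Named genes of the partner and effector list were the 3 called genes with the largest changes per direction and comparison, plus Cd72 and Kdr as receptors of members or partners.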

Additional observations from a re-analysis of the deposited data

Results flagged for a closer look

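For 6 of the 17 tested members not chosen on raw reads, the effects of the knockouts differed by the direct comparison of Stat5b-/- with Stat5a-/- (edgeR quasi-likelihood test), beside 4.81% of all tested genes called up and 6.6% called down. The family was put forward with these differences known, so the count describes it. These were Plxna3 with a log2 difference of -4.97, Plxnb2 with -4.52, Sema7a with -2.35 and Sema3g with -1.46, all lower in Stat5b-/-, and Plxnb1 with 2.59 and Plxnd1 with 1.66, both higher in Stat5b-/-. Plxnb1 entered the test only through its Stat5b-/- reads, so its value is a description. Adjusted p-values of the other 5 lay between 1.54e-09 (Plxnb2) and 0.000317 (Sema3g). Sema5a was also called in this comparison and is left out here, because the rule chose it on the reads of these lines. Each genotype is 1 line, so the genotype and the line cannot be told apart.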

How the results depend on the processing

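The 20 called log2 fold changes of members that raw reads did not choose and that did not enter the test through 1 line alone were each refitted, giving 300 alternative values, of which 288 kept their call, 12 lost it and 0 turned sign. The calls lost were those of Nrp2 in Stat5b-/- (10 values from 0.85 to 0.99) and Sema4b in Stat5a-/- (0.94 and 0.98). Without a fold limit, 6 members in place of 3 were up in Stat5b-/- against Stat5a-/-. With at least 10 reads against 0 reads, 0 members were switched in place of 3, and with at least 0.5 against at most 0.1 CPM 1 was, Sema3e. With the replicate number as a block, 6 members were up and 7 down in Stat5b-/- against wt, and no count of members changed. Libraries of the same number had a mean correlation of deviations of -0.0777 (9 pairs, -0.396 to 0.189). For different numbers it was 0.0388 (18 pairs, -0.387 to 0.353), so no pairing by number was seen. Counts of a few reads limit the folds of Sema3a, Sema3e, Plxna2 and Rnd1, and 1 line per genotype limits every comparison.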
